A study of Mus musculus with 8 samples.

Results

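The genes described here are 36 members of the amino acid response that the transcription factor ATF4 directs, measured in mouse embryonic stem cells grown together with, or apart from, cells that carry a knockdown. Members were taken as the probe sets whose single gene symbol in the platform annotation was on the list. Of the 36 members, 35 had such a probe set (79 probe sets of 45101 on the array) and 34 passed a filter on low signal, out of 18194 named genes and 14267 that passed. Pycr1, an enzyme of proline synthesis, had no probe set of a single gene symbol in the annotation used here, and Slc7a11, the cystine transporter, lay below the filter.

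RNA came from embryonic stem cells (strain 129X1 x 129S1, standard stem cell culture), with a short hairpin against Top1 (shTop1) or p53 (shp53) in the knockdown cells and mock cells as their partners, always at 1:4. In the cocultures both kinds of cell shared a dish for 4 days. In the mixes, which the labels call controls, each kind was grown by itself for 4 days and the RNA was combined at the same ratio, so that the knockdowns' own effects were present on both sides of the comparison. Each of the 4 groups, a mix and a coculture for either hairpin, held 2 arrays, called biological replicates. Nothing says that they came from separate thaws, or that the mixes had separate mock RNA, so the spread behind each p-value may be technical.

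When amino acids run short, uncharged transfer RNA activates the kinase GCN2, encoded by Eif2ak4, and when proteins misfold in the endoplasmic reticulum the kinase PERK, encoded by Eif2ak3, is activated. Both phosphorylate the initiation factor eIF2, which slows protein synthesis in general while the ATF4 messenger is translated more, so that ATF4 activity is set largely by translation and less by the level of its messenger. ATF4 pairs with C/EBP proteins and raises genes for amino acid uptake, amino acid and one-carbon synthesis and transfer RNA charging, together with stress regulators such as Ddit3 and Trib3.

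ATF4 and its C/EBP partners bind composite elements whose core is commonly written TGATGNAA, and these elements are shown because many known ATF4 targets carry one. Promoter windows of 300 bases (250 before and 50 after the start site, RefSeq, GRCm38.p6) were matched for 30 members. Cth, Slc1a5, Nars, Slc7a3, Wars and Slc7a5 were not matched. On either strand, TGATGNAA was found in 10 of the 30 members (33.3%) and in 4.51% of the 27025 genes with a window. The narrower form TGATGCAA, which is contained in the first, was found in 7 of 30 (23.3%) and in 1.03% of all genes. A match is a run of letters, and binding was not measured. For 9 of the 10 members, 1 match that begins before the start site is printed below on the strand where the core reads 5′ to 3′, with that match in capitals and up to 20 bases on each side, cut at the start site (the match of Slc1a4 spans it).
Chac1, chr2:119351029-119351076, minus strand: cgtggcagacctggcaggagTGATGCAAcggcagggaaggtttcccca
Slc7a11, chr3:50443652-50443699, minus strand: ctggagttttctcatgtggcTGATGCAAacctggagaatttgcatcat
Asns, chr6:7693210-7693252, minus strand: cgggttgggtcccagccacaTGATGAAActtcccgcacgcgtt
Gars, chr6:55037951-55037998, minus strand: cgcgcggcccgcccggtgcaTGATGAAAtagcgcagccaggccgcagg
Nupr1, chr7:126625553-126625600, plus strand: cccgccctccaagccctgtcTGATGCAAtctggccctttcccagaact
Aars, chr8:111033710-111033757, minus strand: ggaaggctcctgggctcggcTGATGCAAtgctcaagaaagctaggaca
Slc1a4, chr11:20332710-20332737, plus strand: TGATGCAAcgcaggaggcacgctggagg
Pycr1, chr11:120643824-120643871, minus strand: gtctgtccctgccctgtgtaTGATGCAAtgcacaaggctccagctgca
Vldlr, chr19:27216800-27216847, minus strand: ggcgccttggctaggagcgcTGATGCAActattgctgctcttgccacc

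The remaining match of the 10 was that of Trib3, which lies after the start site. Slc7a11 held the element a second time before the start site, on the other strand within the stretch shown, and Aars a second time after the start site. The 8 members with a match that were tested had log2 differences between coculture and mix, averaged over both knockdowns, from -0.30 to 0.22 with a median of 0.02. The 20 tested members with a window and no match ranged from -0.32 to 0.22 with a median of -0.01. The member with the lowest p in the coculture comparison, Slc38a2, had no match in its window. Sequence outside the windows, introns among it, was not searched for any member, so an element there would be missed. The 250 bases of the Slc38a2 window before the start site are printed for comparison.
Slc38a2, chr15:96699729-96699978, minus strand: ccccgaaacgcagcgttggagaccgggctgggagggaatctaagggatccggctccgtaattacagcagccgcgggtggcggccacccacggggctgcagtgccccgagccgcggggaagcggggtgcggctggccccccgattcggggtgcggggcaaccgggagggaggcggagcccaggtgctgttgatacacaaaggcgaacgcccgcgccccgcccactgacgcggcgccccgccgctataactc

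Values below are quantile-normalized signals, and differences are on the log2(signal + 16) scale, which understates changes of low genes. Before normalization the mean deposited signal was 812 to 896 per array, and after it all pairs of arrays correlated at 0.980 or more over genes. On the first principal component (19.9% of the variance) all mixes (-21.1 to -5.14) lay below all cocultures (-2.94 to 26.1). The highest was shTop1 coculture replicate 2 (26.1), with the next coculture at 12.5, and the lowest was shp53 mix replicate 1 (-21.1). The shTop1 coculture replicate 1 stood apart on the second (32.6 against -15.5 to 3.63, 16.9% of the variance). Top1 read 5213 ± 146 on shTop1 mixes and 5569 ± 160 on shp53 mixes (SD, n = 2 each), where 20% of the RNA came from knockdown cells, and 5282 ± 1.35 and 5729 ± 222 on the matching cocultures. The level of the p53 gene was not analysed here. All 12 stem cell markers passed the filter, with a summed signal of 126140 to 128560 in mixes and 123380 to 131580 in cocultures. In the mean coculture comparison 8 of the 12 lay above 0 and 4 below, with 1 higher (Fgf4, 0.21 ± 0.08, SE) and 1 lower (Zfp42, -0.28 ± 0.10, SE) at an unadjusted p under 0.05. Over all genes 55.3% lay above 0, and limma gave 7.09% higher and 4.63% lower at that threshold. Klf4 was lower in every coculture (6100.2 to 6858) than in every mix (6864 to 7902), though the nearest values almost met. Of all genes, 3.35% were lower and 5.75% higher in every coculture than in every mix. Summed over 11 fibroblast markers, of which 6 passed the filter and the collagen genes Col3a1 and Col6a1, Lum, Dcn and Postn did not, the signal was 2016 to 2244.5 in mixes and 2015 to 2485 in cocultures, of which Pdgfra gave 1125 to 1543. Of the 6 tested, 5 lay above 0 (median 0.22), with Thy1 higher in every coculture (202 to 241) than in every mix (155 to 182) and Acta2 below 0 (-0.32 ± 0.08, SE). Summed over 8 primitive endoderm markers it was 20582 to 21818 in mixes and 21385 to 25237 in cocultures, with all 8 above 0 in the mean coculture comparison (Pdgfra is on both marker lists). In that comparison 0 of the 8 had an unadjusted limma p under 0.05. With shTop1 6 lay above 0 (median 0.04), and with shp53 all 8 did (median 0.19). Summed over 4 neural markers the signal was 920.1 to 1027 in mixes and 807 to 957 in cocultures, with 2 of 4 above 0 and Sox1 lower in every coculture (3.36 to 81.5) than in every mix (90.3 to 121). Their part in the results below was not tested. The final share of knockdown cells in the cocultures was not analysed here, and in bulk RNA fewer cells of a type and less RNA per cell cannot be told apart.

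The first comparison asked which members differ when the cells live together, over both knockdowns. The members as a list had a median log2 difference near 0, while 2 amino acid transporter genes, Slc38a2 and Slc7a3, and the regulator gene Cebpb had lower signals in all 4 cocultures than in all 4 mixes. These were 3 of 34 members (8.82%, background 3.35%), and 0 were higher in this way (background 5.75%). For Cebpb the nearest values of the 2 sides almost met. Slc38a2, which encodes the sodium-coupled carrier of small neutral amino acids SNAT2, was 0.803 times the mixes, and Slc7a3, which encodes a carrier of cationic amino acids, 0.826 times. The genes of serine and one-carbon synthesis and the transfer RNA synthetases had ratios to the mixes of 0.942 (Aars) to 1.05 (Mthfd1l). No member passed limma's test over all genes (0 of 34 members, background 0% of 14267 genes, smallest member adjusted p = 0.333). At an unadjusted p under 0.05 limma gave 2 of 34 members (5.88%), against a background of 11.7%. Both were lower (background 4.63%) and 0 were higher (background 7.09%).

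Over the 34 members the median log2 difference was 0.00068, beside 0.02 over all genes tested, with 17 above 0 (background 55.3%) and 17 below. The median size of the difference, without its sign, was 0.066 for the members, 0.124 for all genes and 0.0909 for the 7134 genes of higher mean signal, which hold 29 of the members. The split of 17 to 17 became 25 to 9 with median centring in place of quantile normalization (median 0.05). No share over all genes was worked out for that setting, so this shift cannot be read as particular to the members. Per array, the median deviation of the members from their own means ran from -0.033 in shp53 coculture replicate 1 to 0.031 in shp53 mix replicate 1. The number of members above their own mean ran from 13 to 20 of 34.

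**Figure D1:**
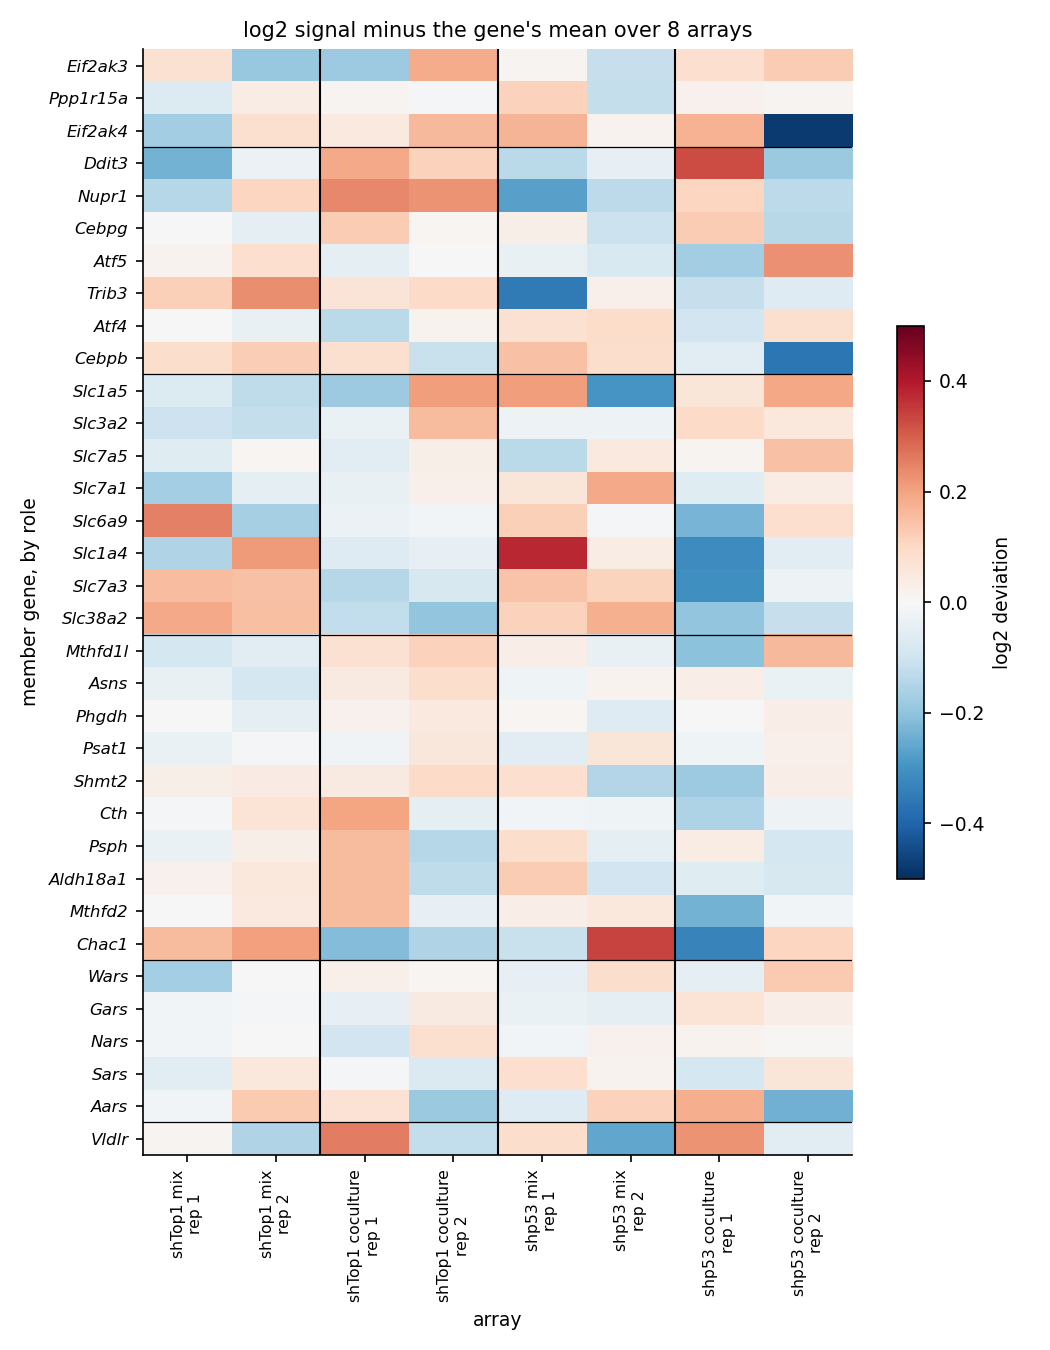
Heat map of the 34 tested members (rows, grouped by role) on the 8 arrays (columns, by group); colour gives log2(signal + 16) minus the gene's mean over the 8 arrays. Slc38a2 and Slc7a3 are above their mean on all 4 mixes and below it on all 4 cocultures, while the list as a whole has a median deviation between -0.033 and 0.031 on every array.

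Of the 3 genes that act on eIF2 phosphorylation, none had a difference larger than its standard error. The PERK gene Eif2ak3 had signals of 1165 to 1404 on mixes and 1172 to 1515 on cocultures, and the log2 difference was 0.11 ± 0.11 (SE, 4 cocultures against 4 mixes). The GCN2 gene Eif2ak4 read 293 and 352 (shTop1) and 376 and 336 (shp53) on the mix arrays, against 344 and 374 (shTop1) and 377 and 234 (shp53) on the coculture arrays. The shp53 coculture thus held both its highest and its lowest value, and the difference was -0.05 ± 0.16 (SE). It was 0.12 without shp53 coculture replicate 2, 0.02 without shTop1 mix replicate 2 and 0.24 as the mean of both its probe sets. Ppp1r15a, which encodes the stress-induced subunit of an eIF2 phosphatase, lay between 823 and 971 on all arrays (0.02 ± 0.08, SE).

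Atf4 itself read 4182 and 4064 (shTop1) and 4407 and 4449 (shp53) on the mix arrays, against 3803 and 4226 (shTop1) and 3909 and 4412 (shp53) on the coculture arrays. Mixes and cocultures overlapped, and the log2 difference was -0.07, with a 95% interval of -0.26 to 0.12. Its related factor Atf5 (0.005 ± 0.10, SE) and Cebpg, a C/EBP family partner (0.06 ± 0.09, SE), were also near 0. A dimmer Atf4 probe set had -0.36 ± 0.25 (SE).

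Cebpb, the C/EBP factor that both partners ATF4 and is one of its targets, read 611 and 628 (shTop1) and 638 and 611 (shp53) on the mix arrays, against 609 and 531 (shTop1) and 552 and 444 (shp53) on the coculture arrays. All 4 cocultures were below all 4 mixes, though the nearest values, 609 and 611, almost met. The difference of -0.22 ± 0.10 (SE) had a limma adjusted p of 0.445. It was -0.15 without shp53 coculture replicate 2, and the other Cebpb probe set past the filter had -0.06 ± 0.22 (SE). In all, 3 of 34 members were lower in every coculture than in every mix (8.82%, background 3.35%) and 0 were higher (background 5.75%).

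Ddit3, which encodes the stress factor CHOP, read 551 and 639 (shTop1) and 592 and 634 (shp53) on the mix arrays, against 747 and 709 (shTop1) and 823 and 572 (shp53) on the coculture arrays. Both shTop1 cocultures were above every mix, while 1 shp53 coculture was the highest and the other among the lowest of the 8 arrays. The difference of 0.22 ± 0.13 (SE) was 0.09 when shp53 coculture replicate 1 was left out, and 0.35 when replicate 2 of that group was. The other, dimmer Ddit3 probe set gave 0.05 ± 0.17 (SE), and -0.08 with shp53 alone. Nupr1, a small chromatin-associated stress protein gene, read 709 and 848 (shTop1) and 647 and 716 (shp53) on the mix arrays, against 929.6 and 919 (shTop1) and 848 and 715 (shp53) on the coculture arrays. Its difference was 0.22 ± 0.10 (SE, limma adjusted p = 0.454), and its second probe set gave 0.23 ± 0.09 (SE).

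Trib3, a pseudokinase that ATF4 induces and that restrains ATF4 and the kinase AKT, was read differently by its 2 probe sets. The one of higher mean signal, whose identifier ends in _x_at and so marks possible cross-hybridisation, read 535 and 580.3 (shTop1) and 381 and 501 (shp53) on the mix arrays, against 515 and 526 (shTop1) and 452 and 469 (shp53) on the coculture arrays (-0.01 ± 0.10, SE). The other, whose identifier ends in _a_at, read 536 and 505 (shTop1) and 438 and 514 (shp53) on the mix arrays, against 406 and 371 (shTop1) and 329.9 and 339.7 (shp53) on the coculture arrays. On this probe set every coculture was below every mix, with a difference of -0.45 ± 0.09 (SE). With every probe set tested by itself, an alternative chosen after seeing the data, its limma adjusted p over 26118 probe sets was 0.398.

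**Figure D2:**
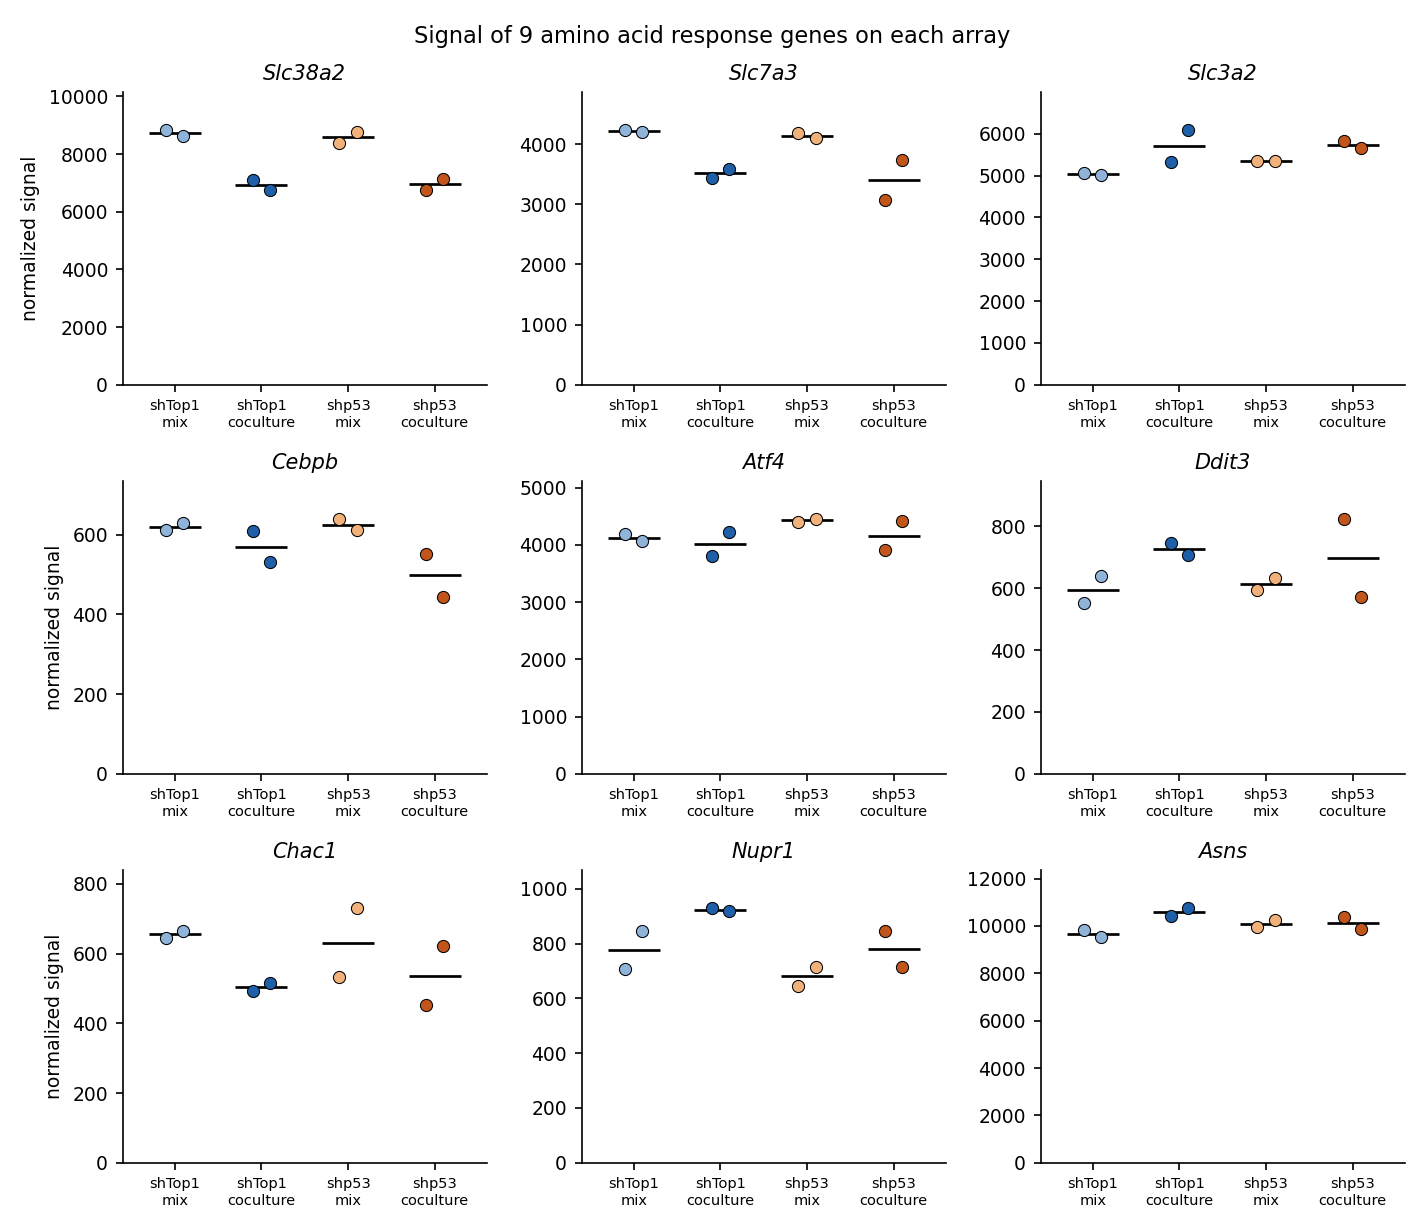
Normalized signal (linear, axes from 0) of 9 members on each of the 8 arrays; each point is an array, each line the mean of the 2 arrays of a group. Slc38a2 and Slc7a3 are lower in all cocultures than in all mixes, Asns and Atf4 overlap between them, and the shp53 coculture arrays of Ddit3 (823 and 572) lie far apart.

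The differences of the transporters ran from -0.32 to 0.14 with a median of -0.06, and 5 of 8 tested members lay below 0. Slc38a2 read 8829 and 8615 (shTop1) and 8395 and 8779 (shp53) on the mix arrays, against 7118 and 6765 (shTop1) and 6751 and 7148 (shp53) on the coculture arrays. The lowest mix, 8395, was above the highest coculture, 7148. The difference was -0.32 ± 0.07 (SE), with a 95% interval of -0.48 to -0.15 and a limma adjusted p of 0.333. Leaving out any 1 array it ranged from -0.34 to -0.30, and it was -0.33 without shTop1 coculture replicate 1. With trended and robust variances it passed limma's test over all genes (adjusted p = 0.043), though the share of all genes that passed in that setting was not counted. Over all 18 alternatives the limma adjusted p of Slc38a2 ran from 0.043 to 0.603. Its 2 dimmer probe sets had -0.15 ± 0.10 and -0.22 ± 0.12 (SE), of the same sign.

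Slc7a3 read 4229.7 and 4196 (shTop1) and 4186 and 4095 (shp53) on the mix arrays, against 3431 and 3593 (shTop1) and 3066 and 3733 (shp53) on the coculture arrays. The 4 mixes lay within a narrow band and every coculture below it. The difference was -0.28 ± 0.09 (SE), with a limma adjusted p of 0.358 and a range of -0.35 to -0.21 leaving out 1 array. The other cationic carrier on the list, Slc7a1, had a mean difference of -0.02 ± 0.08 (SE).

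Slc1a4, a carrier of alanine, serine and cysteine, read 249.99 and 326 (shTop1) and 367 and 286 (shp53) on the mix arrays, against 266 and 271 (shTop1) and 221 and 268 (shp53) on the coculture arrays. Its difference of -0.24 ± 0.13 (SE) came from its brightest probe set, and the other 2 had 0.06 ± 0.08 and 0.06 ± 0.17 (SE). The mean of all its probe sets was -0.04, and without shTop1 mix replicate 2 the brightest had -0.15. Slc6a9, a glycine carrier, had -0.10 ± 0.13 (SE).

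Slc3a2, the heavy chain that carries several amino acid exchangers to the cell surface, read 5072 and 5017 (shTop1) and 5352 and 5359 (shp53) on the mix arrays, against 5320.2 and 6085 (shTop1) and 5824 and 5647 (shp53) on the coculture arrays. Within each knockdown the cocultures were above the mixes, and over all 8 arrays the ranges overlapped (0.14 ± 0.07, SE, limma adjusted p = 0.511). The difference was 0.09 without shTop1 coculture replicate 2 and 0.18 without shTop1 coculture replicate 1. Its light-chain partner Slc7a5, which exchanges large neutral amino acids, had 0.07 ± 0.08 (SE), and the glutamine carrier Slc1a5 had 0.14 ± 0.15 (SE). Slc7a11, another light-chain partner, had signals of 9.18 to 34.8, around the filter of 22.1, and its second probe set 1.67 to 24.9, so no difference is given.

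**Figure D3:**
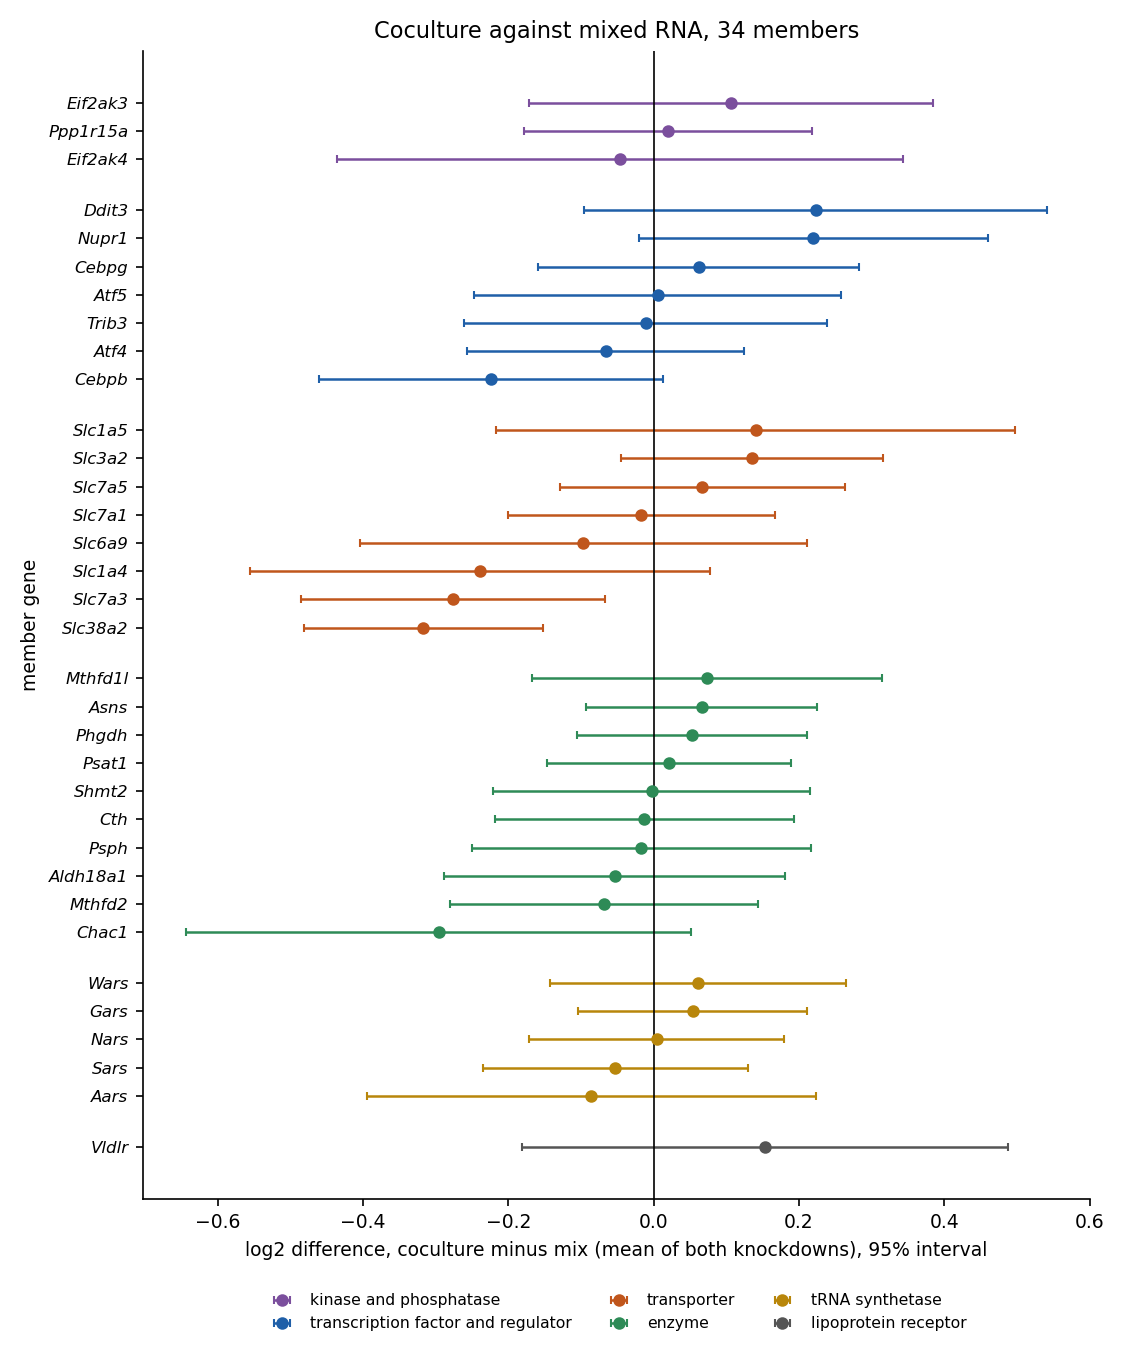
Log2 difference, coculture minus mix and averaged over both knockdowns, for the 34 tested members grouped by role; points are limma estimates and bars their 95% intervals. The intervals of Slc38a2 and Slc7a3 lie below 0 before adjustment over all genes, and those of the serine, one-carbon and transfer RNA synthetase genes lie around 0.

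Among the 10 tested enzymes the differences ran from -0.30 to 0.07, with 4 above 0 and 6 below and a median of -0.01. Asns, asparagine synthetase and a standard ATF4 target, read 9845 and 9513 (shTop1) and 9953 and 10242 (shp53) on the mix arrays, against 10429 and 10750.2 (shTop1) and 10362 and 9872 (shp53) on the coculture arrays. Its difference was 0.07, with a 95% interval of -0.09 to 0.23, which is a ratio of 0.937 to 1.17.

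The 3 genes that make serine from a glycolytic intermediate had ratios near 1. Phgdh, the first of them, had a ratio of 1.04 with a 95% interval of 0.929 to 1.16, and signals of 7395 to 8014 over all 8 arrays. Psat1, the second, had a ratio of 1.01 (0.903 to 1.14), and Psph, the last, 0.988 (0.841 to 1.16). For each, the difference was smaller than its standard error.

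The mitochondrial one-carbon enzymes that use serine gave -0.003 ± 0.09 for Shmt2, -0.07 ± 0.09 for Mthfd2 and 0.07 ± 0.10 for Mthfd1l (SE). Mthfd2 read 2959.7 and 3063 (shTop1) and 3025 and 3068 (shp53) on the mix arrays, against 3299 and 2876 (shTop1) and 2508 and 2926 (shp53) on the coculture arrays. Both shp53 cocultures were below both shp53 mixes, and the shTop1 samples overlapped. Cth, which makes cysteine from cystathionine, read 3534 and 3723 (shTop1) and 3521 and 3502 (shp53) on the mix arrays, against 4078 and 3448 (shTop1) and 3190.1 and 3489 (shp53) on the coculture arrays (-0.01 ± 0.08, SE). Aldh18a1, the entry enzyme of proline synthesis, had -0.05 ± 0.10 (SE).

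Chac1, which degrades glutathione and is among the most responsive ATF4 targets, had the lowest value of the enzymes. It read 644 and 665 (shTop1) and 531 and 730.1 (shp53) on the mix arrays, against 492 and 517 (shTop1) and 453 and 621 (shp53) on the coculture arrays. The shTop1 groups were apart and the shp53 groups overlapped, with 531 and 730 on the 2 replicate arrays of the shp53 mix. The difference was -0.30 ± 0.14 (SE, limma adjusted p = 0.469) and ranged from -0.41 without shp53 mix replicate 1 to -0.19 without shp53 mix replicate 2 or shp53 coculture replicate 1.

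The 5 transfer RNA synthetases on the list, which charge alanine, glycine, asparagine, serine and tryptophan, gave differences from -0.09 (Aars) to 0.06 (Wars), with 3 above 0 and 2 below. Gars read 11232 ± 10.7 (shTop1) and 11005 ± 82.2 (shp53) on mixes, and 11354 ± 475 (shTop1) and 11738 ± 200.5 (shp53) on cocultures (SD, n = 2 each). Nars had a ratio of 1.00, with a 95% interval of 0.888 to 1.13. Sars had -0.05 ± 0.07 (SE). Vldlr, a lipoprotein receptor that PERK and ATF4 induce, had 0.15 ± 0.14 (SE) on its brightest probe set, and all 6 of its probe sets lay above 0. One of these, of mean signal 228, was higher in every coculture than in every mix (0.38 ± 0.10, SE, limma adjusted p = 0.399 over all probe sets). Apart from that one and the brightest, the Vldlr probe sets were dim (10.6 to 103, filter 22.1), so their signs carry little weight.

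Since members were often measured more than once, their probe sets were set side by side. Of 23 members with several probe sets past the filter, 10 had them on both sides of 0 (Slc1a4, Slc1a5, Slc6a9, Psat1, Shmt2, Mthfd2, Aldh18a1, Sars, Wars and Eif2ak4). Of the 73 member probe sets past the filter, 5 were lower in every coculture than in every mix (background 3.46% of 26118 probe sets) and 1 was higher (background 4.61%). The 5 were those of Slc38a2, Slc7a3, Cebpb, the _a_at one of Trib3 and the second of Slc7a1 (-0.11 ± 0.07, SE), and the 1 was that of Vldlr. No member probe set passed the adjusted test in any comparison.

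**Figure D4:**
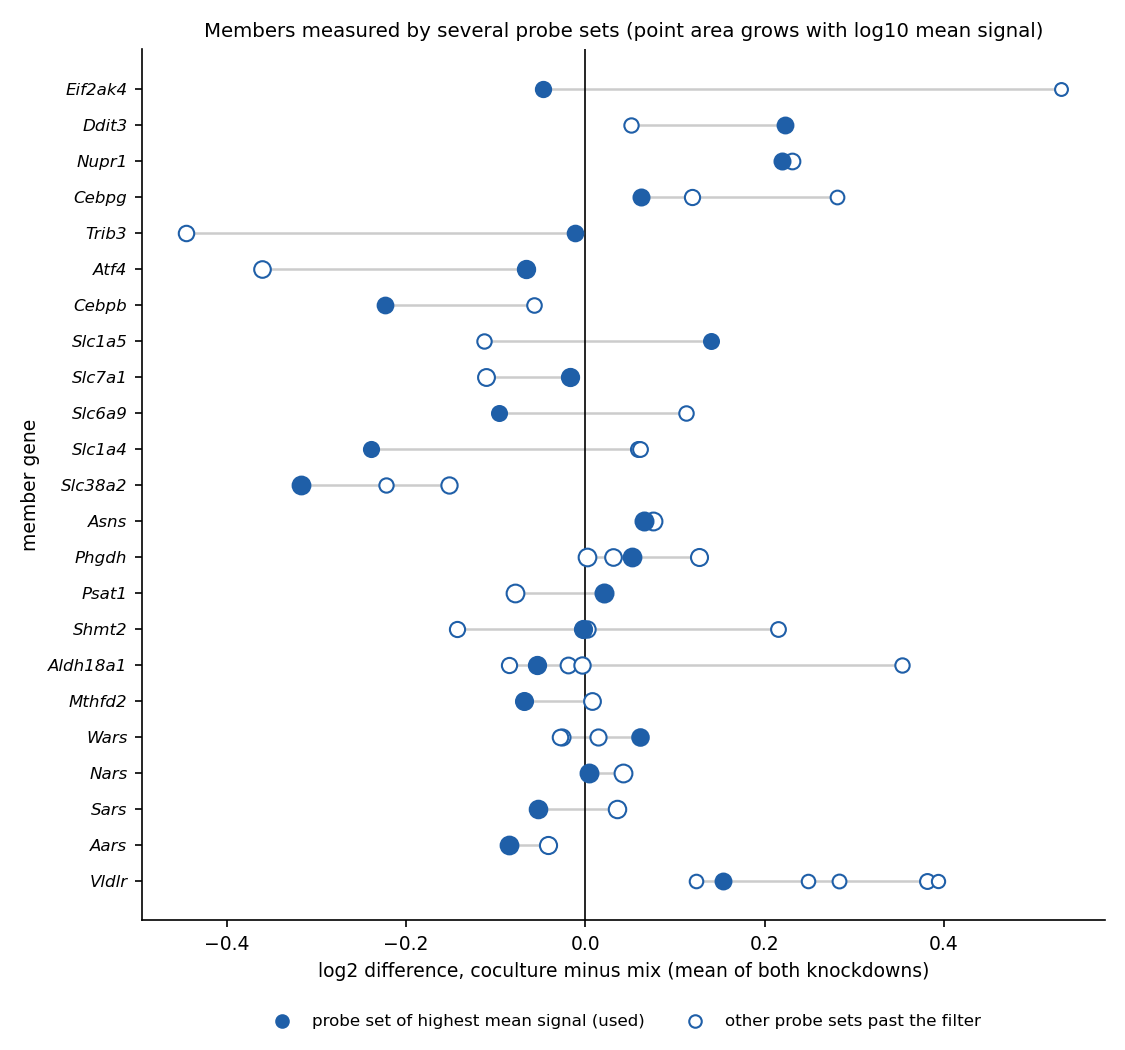
Log2 difference, coculture minus mix and averaged over both knockdowns, for members with over 1 probe set past the filter; filled points are the probe set of highest mean signal, which was used, and open points the others. The probe sets of Slc38a2 all lie below 0 and those of Vldlr, several of them dim, all above. The 2 of Trib3 stand at -0.01 and -0.45.

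With Top1-knockdown cells, limma called 0 of 34 members (background 0%), and 1 had an unadjusted p under 0.05 (2.94%, background 8.2%). Slc38a2 was 0.796 times the mix (-0.33 ± 0.10, SE, limma adjusted p = 0.571) and Slc7a3 0.834 times (-0.26 ± 0.12, SE). The next by p were Chac1 (-0.37 ± 0.20, SE) and Nupr1 (0.25 ± 0.14, SE). Both arrays of the coculture were above both of the mix for 10 of 34 members (29.4%, background 24.5%) and below them for 6 (17.6%, background 16.9%), so these shares were near the background. The 10 were Asns (0.13), Phgdh (0.06), Mthfd1l (0.17), Ddit3 (0.29), Slc3a2 (0.17), Nupr1, Cebpg, Slc7a1, Shmt2 and Wars. The 6 were Slc38a2, Slc7a3, Chac1, Cebpb (-0.12), Trib3 (-0.095) and Atf5 (-0.075). The members' median was 0.03, as over all genes, with 22 above 0 (64.7%, background 55.6%).

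With p53-knockdown cells, limma likewise called 0 of 34 members (background 0%), and 1 had an unadjusted p under 0.05 (2.94%, background 6.86%). Slc38a2 was 0.810 times the mix (-0.30 ± 0.10, SE, limma adjusted p = 0.711), and Slc7a3 0.818 times (-0.29 ± 0.12, SE). Cebpb had -0.33 ± 0.14 and Slc1a4 -0.39 ± 0.18 (SE). Both coculture arrays were above both mix arrays for 3 members (8.82%, background 20.9%), namely Slc3a2, Gars and Eif2ak3, and below them for 7 (20.6%, background 17.1%), namely Slc38a2, Slc7a3, Slc7a1, Slc1a4, Cebpb, Mthfd2 and Cth. The members' median was -0.01, beside 0.01 over all genes, with 17 above 0 (background 53%).

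The effects of coculture were then compared between the knockdowns. No member differed in limma's test of the difference (0 of 34, background 0%), and at an unadjusted p under 0.05 there were 0 of 34 (background 4.3%). The median of the difference, shTop1 minus shp53, was 0.05 beside 0.007 over all genes, with 22 of 34 members above 0 (64.7%, background 51.5%), among them 9 of 10 enzymes. It ranged from 0.003 without shp53 coculture replicate 1 to 0.077 without shp53 mix replicate 2. The lowest p belonged to Slc7a1, which read 3258 and 3559.6 (shTop1) and 3834 and 4184 (shp53) on the mix arrays, against 3574 and 3738 (shTop1) and 3524 and 3770.3 (shp53) on the coculture arrays. Its difference between the knockdowns was 0.24 ± 0.15 (SE, limma adjusted p = 1, 95% interval -0.13 to 0.60). For Slc38a2 the difference between the knockdowns had an interval of -0.35 to 0.30, so an unequal change of that size was not detectable with 2 arrays a group.

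**Figure D5:**
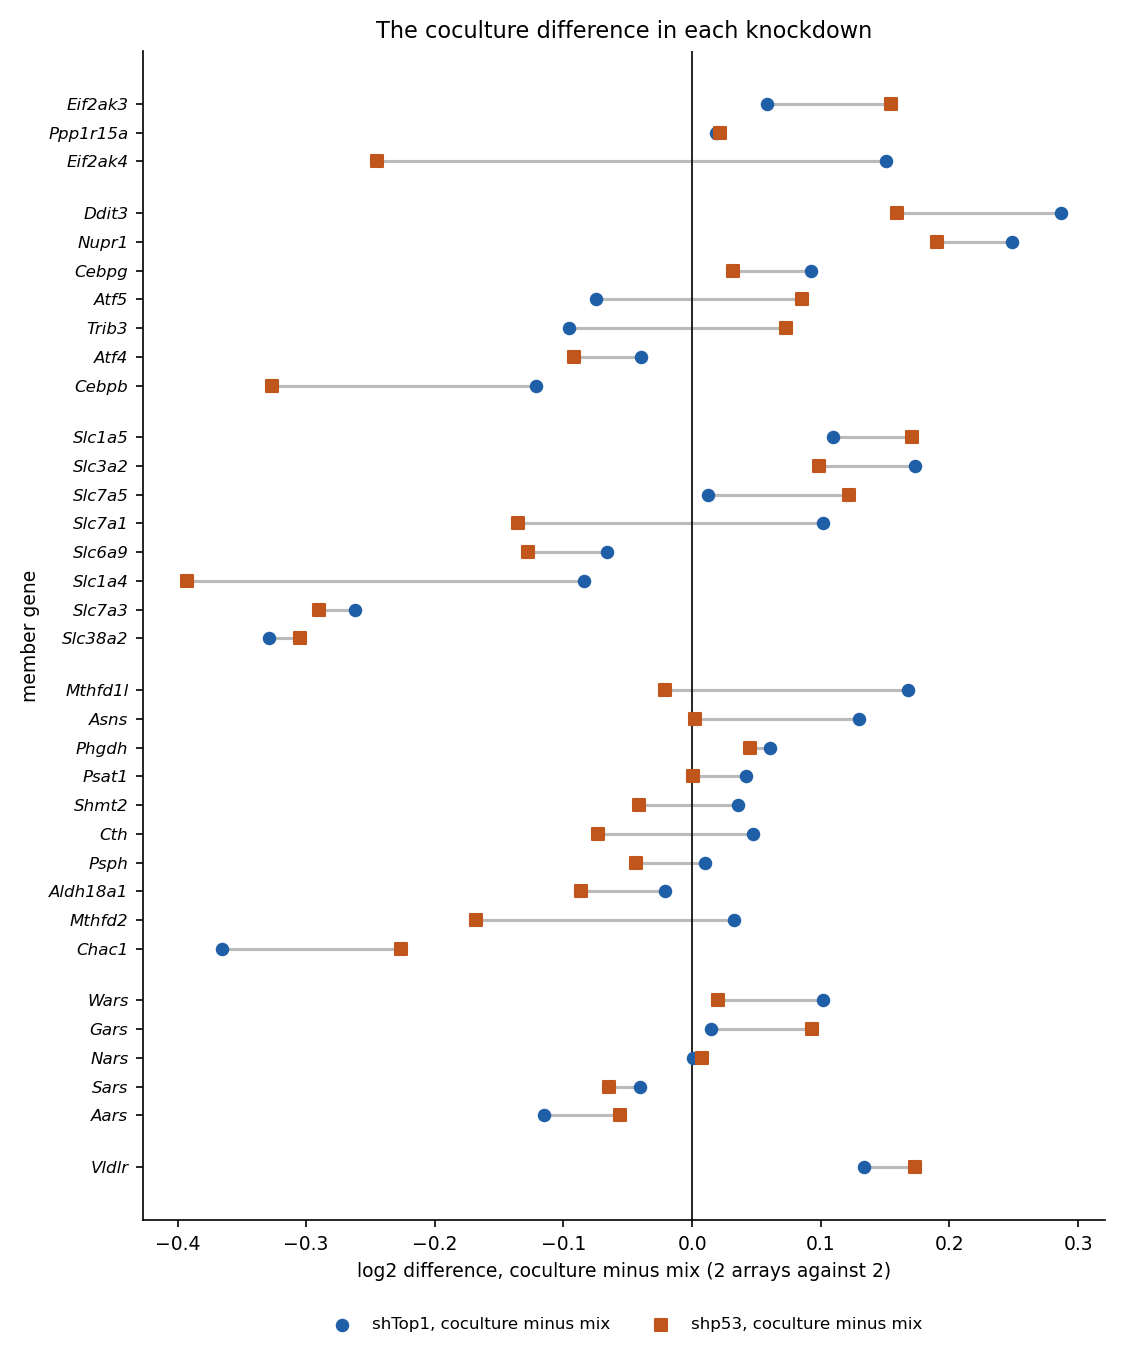
Log2 difference, coculture minus mix, of each member with shTop1 (circles) and shp53 (squares), grouped by role; the line joins both values of a gene. Slc38a2 lies at -0.33 with shTop1 and -0.30 with shp53 and Slc7a3 at -0.26 and -0.29, while Slc7a1 lies at 0.10 with shTop1 and -0.14 with shp53.

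Over both conditions, shTop1 samples were set against shp53 samples. No member passed (limma, 0 of 34, background 0%), and 1 had an unadjusted p under 0.05 (2.94%, background 4.7%). That member was Trib3, whose 4 shTop1 arrays (515 to 580) were all above its 4 shp53 arrays (381 to 501). It was the single member of 34 with such a separation (2.94%, background 1.02%), with 0 the other way (background 1.07%), at 1.19 times the shp53 samples (0.26 ± 0.10, SE, limma adjusted p = 0.999). Its other probe set gave 0.17 ± 0.09 (SE) with overlapping arrays. Nupr1 had 0.21 ± 0.10 (SE), Slc7a1 -0.11 ± 0.08 and Cth 0.11 ± 0.08. The members' median was 0.005 beside -0.004 over all genes. With median centring the median was 0.08 and 32 of 34 lay above 0, against 19 of 34 with quantile normalization (55.9%, background 48.7%). The share of all genes above 0 with median centring was not worked out. The 32 of 34 therefore cannot be read as a trait of the members.

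Other genes of the pathway, from lists that are no part of the members, were read in the mean coculture comparison, and none passed limma's test over all genes in either direction. Over all genes, 55.3% lay above 0, and at an unadjusted p under 0.05 limma gave 7.09% higher and 4.63% lower. Of 14 tested genes of the eIF2 arm (median 0.05, 9 above 0, with 0 higher and 1 lower at an unadjusted p under 0.05), Ppp1r15b, which encodes the constitutive subunit of the eIF2 phosphatase, had the lowest p. It read 2800.0 and 2932 (shTop1) and 3245 and 2954 (shp53) on the mix arrays, against 2586 and 2528 (shTop1) and 2526 and 2185 (shp53) on the coculture arrays. Every coculture was below every mix (-0.28 ± 0.08, SE, limma adjusted p = 0.355). Next came Eif2b5, a subunit of the exchange factor of eIF2 (0.13 ± 0.08, SE). Of 14 other synthetases (median 0.02, 9 above 0, with 1 higher and 0 lower), Qars, which charges glutamine, had 0.20 ± 0.07 (SE, limma adjusted p = 0.381) with every coculture above every mix, and Kars, for lysine, 0.10 ± 0.07 (SE).

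Of 18 other reported ATF4 targets tested (median 0.10, 11 above 0), 3 were higher and 2 lower at an unadjusted p under 0.05, beside the 7.09% and 4.63% of all genes. Ddit4, an inhibitor of mTORC1 that low oxygen also induces, had 0.29 ± 0.09 (SE) and Sesn2, a leucine-sensing inhibitor of mTORC1, -0.40 ± 0.13 (SE). Ddit4 was higher in every coculture (10470 to 12600) than in every mix (8657 to 10348). The same held for Nfe2l1 (1705 to 1888 against 1403 to 1657) and Pck2 (1076 to 1295 against 1014 to 1067), both singled out after their values were seen. Over all genes, 5.75% were higher and 3.35% lower in this way. Slc38a1, the close relative of Slc38a2, was singled out after its value was seen. It read 2366 and 2627 (shTop1) and 2529.5 and 2219 (shp53) on the mix arrays, against 1805 and 1519.9 (shTop1) and 1500.2 and 2357 (shp53) on the coculture arrays. Thus 3 of 4 cocultures were below every mix and the fourth among them (-0.46 ± 0.16, SE, limma adjusted p = 0.380).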

How the data were processed

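RNA of 8 samples in 4 groups of 2 was measured on Affymetrix arrays, labelled by the maker's protocol per the labels. For each probe set the authors deposited 1 signal intensity per array, on a linear scale. No source used here names the summarising tool. The mean without the highest and lowest 2% was about 500.003 on every array, which shows that the authors had scaled the deposited intensities to one target. The number of arrays limits the precision.

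Values were brought to common quantiles across arrays and analysed as log2(signal + 16). A gene was represented by its probe set of highest mean among those with 1 symbol (34958 of 45101, while 932 had several and 9211 were not listed), with symbols updated through gene identifiers. Genes whose mean lay under the 30th percentile (22.1 in signal units) were left out. Group means were fitted over 8 arrays with limma 3.58.1 (lmFit and eBayes, R 4.3.3, 4 residual degrees of freedom). Two-sided p-values were adjusted by Benjamini-Hochberg over 14267 genes, with a threshold of 0.05. Intervals of 95% came from the moderated errors. The steps were tested on simulated data.

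The members and all lists were chosen with earlier results of these data known. Every member is named. Values on each array are given for Atf4, Asns, Trib3, Chac1 and Ddit3, for up to 6 members of lowest p in the mean coculture comparison and up to 4 in each other comparison. Of each pathway list the 2 genes of lowest p are named. Slc38a1, Nfe2l1 and Pck2, of the other ATF4 targets, were added after their values were seen. Alternatives were median centring, the authors' scaling alone, no filter and the 50th percentile, the mean of all probe sets, pseudocounts of 1 and 64, trended and robust variances, a fit to the compared groups by themselves, a replicate block and leaving out each array. Leaving out probe sets whose identifiers end in _x_at or _s_at (7 of the 34 members' chosen ones), and testing every probe set by itself, were added after seeing the data.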

Additional observations from a re-analysis of the deposited data

Results flagged for a closer look

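Slc7a1, a carrier of cationic amino acids, was the single member whose coculture arrays were both above the mix arrays with shTop1 and both below them with shp53. Over all genes, 24.5% were higher in this way with shTop1 and 17.1% lower with shp53, each counted alone. The share of genes with both was not counted, so a single member is not read as unusual. The coculture effect was 0.10 ± 0.11 with shTop1 and -0.14 ± 0.11 with shp53 (SE, n = 2 against 2 each). The difference between them, 0.237 on the log2 scale, was tested and did not pass (limma adjusted p = 1). Its second probe set was lower in all 4 cocultures than in all 4 mixes. With 2 arrays in each group, single arrays that lie far from the others of their group could not be tested for.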

How the results depend on the processing

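The count of members past limma's adjusted threshold was 0 in each of the 5 comparisons and stayed 0 under every alternative but 1. With trended and robust variances the mean coculture comparison had 1 called member, Slc38a2 (-0.317, limma adjusted p = 0.043). The share of all genes called in that setting was not counted, so this call does not set the members apart. At an unadjusted limma p under 0.05 the count of members in the mean coculture comparison was 2 of 34 (5.88%, background 11.7%), and 1 to 6 over the alternatives. The background under each alternative was not counted, so the higher counts are not read as a result about the members. The member median moved by more than its spread between replicates (0.0219) in the following cases. With median centring it was 0.0532 in the mean coculture comparison, 0.102 with shTop1, 0.0345 with shp53 and 0.0786 for shTop1 against shp53. The matching medians over all genes are not given here, so these values do not set the members apart. With the mean of all probe sets the median of the difference between the knockdowns was 0.0239. Without probe sets ending in _x_at and _s_at the shp53 median was -0.0397, and Trib3 then had -0.446 (adjusted p = 0.336). With each array left out in turn, the member median lay between -0.00606 and 0.0174 in the mean coculture comparison, from 0.012 to 0.0445 with shTop1, from -0.0463 to 0.00474 with shp53, from 0.00305 to 0.0766 for the difference between the knockdowns and from -0.011 to 0.0387 for shTop1 against shp53, with 0 members called in each. The labels do not say that replicate numbers mark a shared batch. Same-numbered arrays of different groups deviated together at r = -0.00666 to 0.0506, and with the replicate block 0 members were called in every comparison (smallest adjusted p in the mean coculture comparison 0.376). Signals near the filter, such as those of Slc7a11, set no limit on a change.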

Other observations

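The genes that sense amino acids upstream of mTORC1 were read beside the members. All 10 on the list were tested, with a median log2 difference between coculture and mix of 0.08 (6 above 0), and limma called 0 of them, also at an unadjusted p under 0.05. Sesn2, which also senses leucine upstream of mTORC1, was kept on the list of other ATF4 targets and is not among the 10. It had -0.40 ± 0.13 (SE) and did pass an unadjusted p under 0.05 (limma adjusted p = 0.372). Among the 10, the lowest p belonged to Depdc5, a subunit of the GATOR1 inhibitor complex (0.18 ± 0.08, SE), and Sesn1, a sestrin (0.14 ± 0.07, SE). Of 11 other serine, glycine, folate and proline enzymes tested, 4 lay above 0 and 7 below (median -0.05), with 0 higher and 2 lower at an unadjusted p under 0.05 (7.09% and 4.63% of all genes). Tyms, which makes thymidylate from one-carbon units, had -0.50 ± 0.16 (SE) at signals of 58.7 to 156, and Mthfd2l, a mitochondrial relative of Mthfd2, had -0.28 ± 0.10 (SE). Both had an unadjusted limma p under 0.05 and did not pass over all genes (adjusted p = 0.365 and 0.375).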
